A study of Mus musculus with 4 samples.

Results

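Class I antigen processing was examined in mouse colon through 10 genes: the immunoproteasome subunits Psmb8, Psmb9 and Psmb10, the peptide transporter chains Tap1 and Tap2, the loading factor Tapbp, the trimming enzyme Erap1, the heavy chain H2-D1, the light chain B2m and the transcriptional regulator Nlrc5. They were chosen by gene name on the arrays, with every probe of each gene, and are 10 of 22190 genes and 12 of 39429 probes. The study profiled C57BL/6 colon on 4 single-colour arrays, 1 for each combination of genotype and treatment. Wildtype mice (WT) were compared with mice lacking both copies of Pla2g10 (KO), the gene of the group X secreted phospholipase A2, which cuts fatty acids off phospholipids. Colons came from untreated (naive) mice or from mice given 1% (w/v) dextran sulfate sodium (DSS), a chemical that damages the epithelium and causes colitis, in drinking water until day 7. The mice were taken to be males of 9 weeks, since the age and sex tags of the labels appear to be exchanged, while the housing text gives 8 weeks. RNA from the colons of 3 mice was mixed for each array, so that all 4 groups are single pools and no comparison between 2 arrays has a replicate. The sources used here do not say whether Pla2g10 was absent from all tissues or which part of the gene was deleted.

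Class I molecules show peptides from inside the cell to CD8 T cells. Peptides are cut by the proteasome, pumped into the endoplasmic reticulum by the Tap1-Tap2 transporter, trimmed by Erap1 and loaded with the help of tapasin (Tapbp) onto a heavy chain paired with beta-2-microglobulin (B2m). Interferon-gamma is known to exchange the constitutive catalytic subunits Psmb5, Psmb6 and Psmb7 for Psmb8, Psmb9 and Psmb10, and to induce Nlrc5, a transactivator of class I genes. In the colon both epithelial cells and leukocytes carry class I molecules.

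The promoters of the genes hold known types of regulatory sequence, shown because several of these genes were higher together with DSS. RefSeq windows of 300 bases (250 before to 50 after the start, GRCm38.p6) were matched for 8 of the 10 genes. Nlrc5 and Tap2 had no window and were not searched. The first sequence is the whole stretch of 225 bases between the divergent starts of Psmb9 (to its left, reverse strand) and Tap1 (to its right), at chr17:34187331-34187555. The next are the bases before the start of B2m (chr2:122147537-122147686) and of H2-D1 (chr17:35262894-35263093), and 30 bases around a match in Psmb8 (chr17:34198088-34198117) and in Erap1 (chr13:74639839-74639868), all on the forward strand of GRCm38.p6. Capitals mark motif matches on either strand.
Tap1-Psmb9 stretch: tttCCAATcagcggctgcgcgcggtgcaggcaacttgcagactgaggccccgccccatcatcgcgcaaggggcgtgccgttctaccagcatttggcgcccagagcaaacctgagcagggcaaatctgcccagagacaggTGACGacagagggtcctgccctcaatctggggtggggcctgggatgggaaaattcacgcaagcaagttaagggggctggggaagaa
B2m upstream: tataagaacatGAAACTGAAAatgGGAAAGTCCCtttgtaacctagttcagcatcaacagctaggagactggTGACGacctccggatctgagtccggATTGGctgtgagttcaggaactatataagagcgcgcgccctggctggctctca
H2-D1 upstream: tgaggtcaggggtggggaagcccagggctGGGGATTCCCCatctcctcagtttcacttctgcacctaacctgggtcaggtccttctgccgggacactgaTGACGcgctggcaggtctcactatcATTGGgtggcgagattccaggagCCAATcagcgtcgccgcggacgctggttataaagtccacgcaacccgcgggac
Psmb8 site: tcctccgctgTTCCCAGAAgatgccccccc
Erap1 site: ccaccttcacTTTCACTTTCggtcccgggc

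Motifs were searched on both strands, and a match is a description of the letters only. The core of the interferon-stimulated response element lay in the windows of B2m (first base at -139 from the start) and Erap1 (at -4), and in 3.44% of all 32851 windows. The start of the Erap1 window lies inside the annotated gene, which begins at chr13:74639573. The gamma-activated sequence TTCNNNGAA lay in that of Psmb8 (at -97) and in 8.3% of all windows. A kappa B site was found in B2m (at -126) and in 0.411% of windows, and its palindromic form known from H-2 genes in H2-D1 (at -171) and in 0.0304%. TGACG, the core of the cAMP response element, was found in B2m, Psmb9, Tap1 and H2-D1 and in 20.8% of windows, the match of Psmb9 and Tap1 being the same site of their shared stretch. The full palindrome TGACGTCA, which contains that core, lay in 0 of the 8 windows and in 1.79% of all. The CCAAT box was found in 5 of the 8 windows (B2m, Tapbp, Psmb9, Tap1 and H2-D1) and in 37.4% of all, and again Psmb9 and Tap1 share the match.

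On the arrays each gene was read by a 60-base probe, and the probes of 3 of the genes past 2-fold with DSS (Psmb8, Psmb9 and Tap1) are shown as designed, in lower case and in the sense of the transcript. Nlrc5 had a second, dimmer probe, which gave another answer than the first and is shown for that reason.
Psmb8 probe: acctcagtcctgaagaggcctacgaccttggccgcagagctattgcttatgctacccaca
Psmb9 probe: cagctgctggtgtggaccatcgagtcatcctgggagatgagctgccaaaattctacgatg
Tap1 probe: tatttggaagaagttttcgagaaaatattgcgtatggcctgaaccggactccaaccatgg
Nlrc5 dimmer probe: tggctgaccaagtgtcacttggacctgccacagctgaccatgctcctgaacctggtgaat
Per the file headers these map on mm9 to chr17:34337771-34337830 (Psmb8, forward strand), chr17:34319174-34319233 (Psmb9, reverse strand), chr17:34330854-34330913 (Tap1, forward strand) and chr8:97030478-97030624 (Nlrc5, forward strand). The last spans 147 genomic bases for 60 probe bases, so its transcript sequence is not contiguous in the genome. The brighter Nlrc5 probe lies at chr8:97051105-97051164, starting at transcript position 6877 against 4062 for the dimmer probe. Of the 10 genes, 6 lie on chromosome 17, and Psmb9, Tap1, Psmb8 and Tap2 fall in that order within 34.292 kb.

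Values are relative signals, the processed intensity over the array's 75th percentile, which is therefore 1. Signals of different probes are not comparable as levels, so the level of a gene was compared only between arrays. All 10 genes were measured well above background on all 4 arrays with the probe that stands for the gene. The 4 arrays had 67.7% to 70.4% of spots well above background, 0 saturated spots and a median SD of 0.0576 to 0.0637 (log2) between repeat spots of a probe. An SD of 0.09 for the log2 ratio of 2 arrays follows from the larger of these, which holds spot-to-spot noise but no spread from mouse to mouse. The targeted gene, Pla2g10, had relative signals of 15.9 (WT naive) and 19.1 (WT DSS) against 1.70 (KO naive) and 0.997 (KO DSS), 9.37-fold and 19.1-fold lower in KO. As a check of the tissue label, Epcam, an epithelial adhesion gene, was well above background at 7.76 to 9.50 in the 4 pools. In whole tissue, fewer cells of a type and less RNA per cell cannot be told apart.

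With DSS, 4 of the 10 genes were at least 2-fold higher than in naive colon in WT (Psmb8, Psmb9, Tap1 and Nlrc5), against 3.4% of all genes. In KO the 4 genes past 2-fold were Psmb8, Psmb9, Tap1 and Nlrc5 as well, against 5.67% of all genes. None was 2-fold lower in either genotype (5.23% and 5.02% of all genes were). The ratio of DSS to naive was above 1 for all 10 genes in both genotypes, also under median scaling, quantile normalization and normexp correction. The deposited series table, which holds the same scaling as used here, gave the same and is no further check. The median log2 ratio of the 10 was 0.80 in WT and 0.65 in KO, beside medians over all genes of -0.02 and -0.13. Their log2 ratios ran from 0.23 (Tapbp) to 2.08 (Tap1) in WT and from 0.01 (Tapbp) to 2.49 (Nlrc5) in KO.

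**Figure D1:**
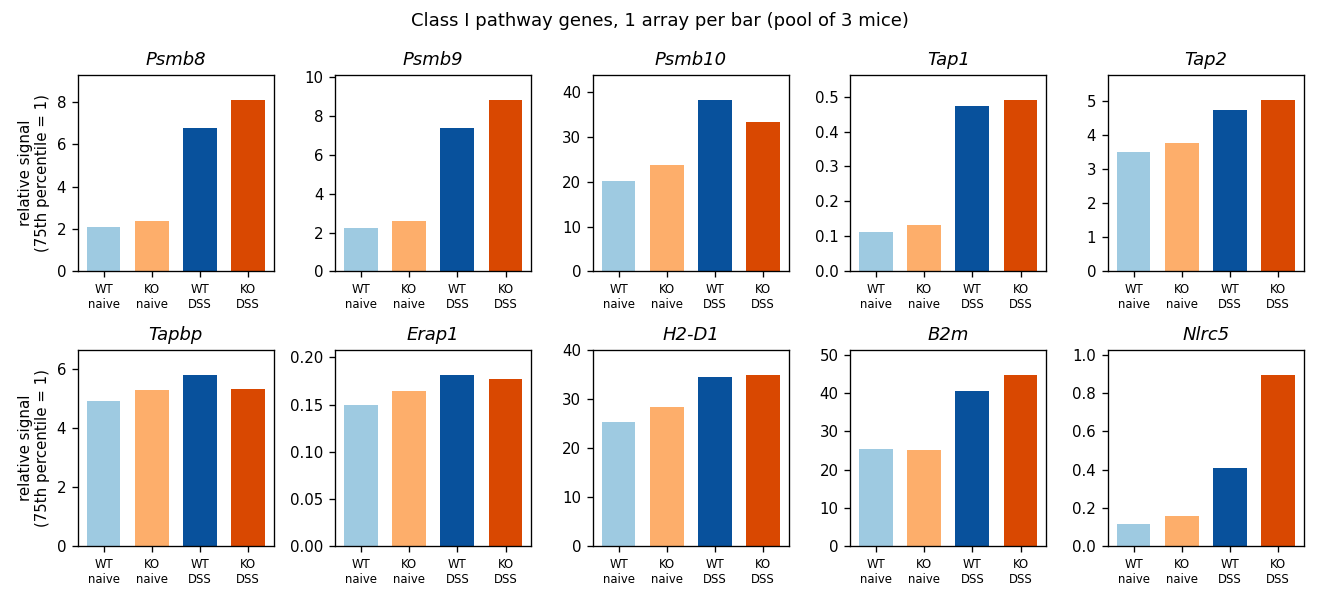
Relative signal (75th percentile of the array = 1, linear axes starting at 0 and differing between panels) of the 10 class I pathway genes. Each bar is 1 array of RNA pooled from 3 mice, with no replicate and so no error bar; Psmb8, Psmb9, Tap1 and Nlrc5 are at least 2-fold higher in the DSS pools than in the naive pool of the same genotype, and Tapbp and Erap1 differ little.

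The mean DSS effect over both genotypes was also tested with limma across all 22190 genes, with genotype as a covariate and 1 residual degree of freedom. It called 0 genes at an adjusted p under 0.05 (0% of all genes), although 4098 had an unadjusted p under 0.05. The 4 genes past 2-fold each had a limma adjusted p of 0.201, and the other 6 had between 0.227 (B2m) and 0.703 (Tapbp). Restricting the fit to the 19349 genes well above background on all 4 arrays called those 4 genes (adjusted p 0.0095 for Tap1, 0.0122 for Psmb9, 0.0125 for Psmb8 and Nlrc5), among 5.74% of genes. With limma's trend and robust options the fit also called the 4 (adjusted p 0.0013 for Psmb8 and Psmb9, 0.0028 for Tap1, 0.0034 for Nlrc5), among 6.92%. The call of a DSS effect therefore depends on the filter and on the variance model.

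Among the immunoproteasome subunits, Psmb8 (LMP7, the chymotrypsin-like subunit) had relative signals of 2.10 (WT naive), 2.36 (KO naive), 6.76 (WT DSS) and 8.06 (KO DSS). Both DSS pools lay above both naive pools, 3.21-fold in WT and 3.41-fold in KO. Psmb9 (LMP2) followed it closely, at 2.25, 2.62, 7.39 and 8.81 in the same order, so that DSS pools were 3.28-fold (WT) and 3.36-fold (KO) higher. The log2 DSS ratio of Psmb8 minus that of Psmb9 was -0.03 in WT and 0.02 in KO, smaller in size than the spot noise of a single ratio (0.09). Psmb10 (MECL-1, the trypsin-like subunit; probe at chr8:108459677-108459736, mm9) stood at 20.2, 23.8, 38.1 and 33.2. Its DSS pools were 1.89-fold (WT) and 1.40-fold (KO) above naive, short of the threshold in both. A second Psmb9 probe (chr17:34322762-34322821, mm9), designed on another transcript, was not well above background on any array, at 0.00574 to 0.00924, and gives no ratio.

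The constitutive subunits that these replace were not 2-fold changed (0 of 3 in each genotype). Psmb5, the counterpart of Psmb8, had log2 DSS ratios of 0.62 in WT and 0.14 in KO, Psmb6 (of Psmb9) 0.42 and 0.07, and Psmb7 (of Psmb10) 0.56 and 0.42. The log2 ratio of Psmb8 exceeded that of Psmb5 by 1.06 in WT and 1.63 in KO, and that of Psmb9 exceeded Psmb6 by 1.29 and 1.68. Expressed as folds, the response of the immunoproteasome subunit was 2.09 times (Psmb8 over Psmb5) and 2.45 times (Psmb9 over Psmb6) that of its counterpart in WT, and 3.10 and 3.21 times in KO. For Psmb10 and Psmb7 the differences were 0.36 and 0.06 only. A difference within an array does not depend on a factor that scales the whole array. None of these differences has a test, since each rests on 1 array per group.

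**Figure D2:**
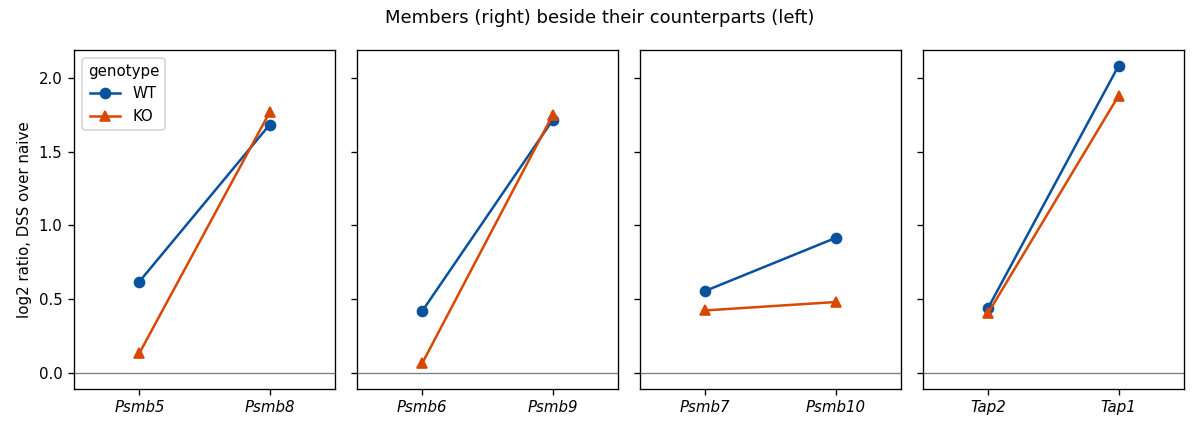
Log2 ratio of DSS over naive for each immunoproteasome subunit (right) and its constitutive counterpart (left), and for Tap1 beside Tap2; circles are WT and triangles KO, 1 array per group. Psmb8, Psmb9 and Tap1 lie between 1.68 and 2.08, their counterparts between 0.07 and 0.62, and Psmb10 stays within 0.36 of Psmb7.

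In the rest of the proteasome 0 genes passed 2-fold with DSS. Of the 11 other 20S core subunits, all 11 had log2 ratios above 0 in both genotypes, with medians of 0.55 in WT and 0.34 in KO. Psma3 had the highest mean of both genotypes (0.69 in WT, 0.42 in KO) and Psma4 the lowest (0.28 and 0.27). Of 21 genes of the 19S regulatory particle, 21 were above 0 in WT and 18 in KO, with medians of 0.35 and 0.21, Psmd14, its deubiquitinase, being highest (0.81 and 0.80) and the ATPase subunit Psmc1 lowest (0.34 and -0.10). Of 80 pathway genes outside the 10, 20 had at least 1 further probe well above background on all 4 arrays. For 8 of the 20 such a probe gave a DSS ratio of opposite sign in at least 1 genotype, Psmc1, Psme2 and Psme4 among them. The interferon-inducible activator chains Psme1 (PA28 alpha) and Psme2 (PA28 beta) stood at log2 ratios of 0.73 each in WT, and at 0.69 and 0.31 in KO. A further Psme2 probe, with relative signals of 7.47 to 13.1, gave 0.81 in WT and 0.72 in KO. The Psme2 probe of opposite sign was much dimmer (0.022 to 0.054) and gave -0.04 in WT and 0.92 in KO. Psme3 (PA28 gamma) was at 0.25 and -0.27, and Psme4 (PA200) at 0.46 and 0.00. The assembly factor Pomp, which acts in immunoproteasome maturation, was at 0.65 and 0.45, and the assembly chaperones Psmg1 (0.33 and 0.20) and Psmg2 (0.04 and 0.06) were lower. With the trend and robust options, limma called Psme1 (adjusted p = 0.046) and Psmd14 (adjusted p = 0.020) among the genes of these lists, of which the standard fit called 0. The fit over genes well above background on all 4 arrays called neither.

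The transporter chains differed. Tap1 had 10 repeat spots on each array, with medians of 0.111 (WT naive), 0.133 (KO naive), 0.465 (WT DSS) and 0.486 (KO DSS). Its spots ranged from 0.106 to 0.130 and from 0.123 to 0.150 on the naive arrays (WT, KO), and from 0.451 to 0.528 and from 0.473 to 0.530 on the DSS arrays. The naive and DSS spots did not overlap. The ranges of WT and KO overlapped within each treatment. At the same position on the array KO exceeded WT at all 10 positions in naive colon and at all 10 with DSS. All spots of an array share its scaling, and with DSS the sign depended on it. The Tap1 log2 ratio of KO over WT with DSS was 0.04 as scaled here, -0.05 after median scaling and -0.02 after quantile normalization. The SD between spots was 0.05 to 0.09 on the log2 scale, against log2 ratios with DSS of 2.08 in WT (4.23-fold) and 1.88 in KO (3.68-fold). Repeat spots read 1 labelled RNA and are no replicates of the mice. Tap2 (chr17:34353116-34353175, mm9) had 3.49, 3.78, 4.74 and 5.01 (WT naive, KO naive, WT DSS, KO DSS), with DSS pools 1.36-fold (WT) and 1.33-fold (KO) above naive. The log2 ratio of Tap1 exceeded that of Tap2 by 1.64 in WT and by 1.47 in KO. Tap1 and Psmb9, which start 225 bases apart, had log2 DSS ratios that differed by -0.37 in WT and -0.13 in KO (Psmb9 minus Tap1).

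**Figure D3:**
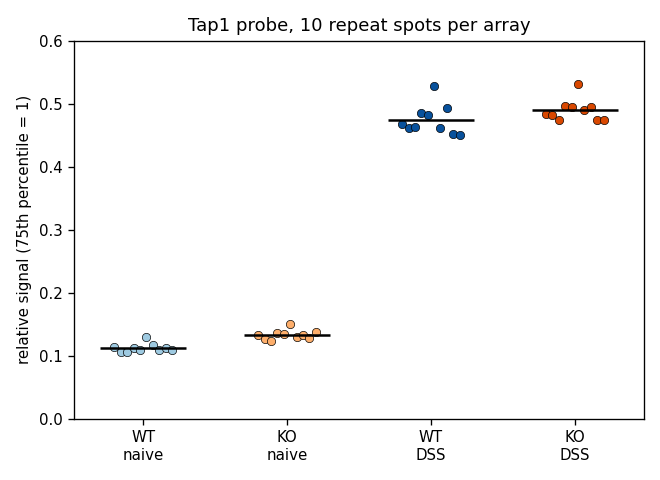
Relative signal of the 10 repeat spots of the Tap1 probe on each array (points; bars mark the mean), on a linear axis from 0. The naive spots lie between 0.106 and 0.150 and the DSS spots between 0.451 and 0.530, and the ranges of WT and KO overlap within each treatment.

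The peptide-loading and trimming members differed least. Tapbp, which bridges the transporter and the empty class I molecule (chr17:34065963-34066022, mm9), was at 4.93 (WT naive), 5.27 (KO naive), 5.78 (WT DSS) and 5.32 (KO DSS). The KO pools were thus nearly equal (1.01-fold), and the WT DSS pool was 1.17-fold above its naive pool. Erap1, the aminopeptidase that trims peptides to class I length (chr13:74828969-74829028, mm9), stood at 0.149, 0.164, 0.181 and 0.177, with DSS pools 1.21-fold (WT) and 1.08-fold (KO) above naive. Of 5 other loading and trimming genes, 0 passed 2-fold. The chaperone Calr had log2 ratios of 0.66 and 0.55 (WT, KO), the thiol oxidoreductase Pdia3 0.28 and 0.51, the peptide editor Tapbpl 0.55 and 0.24, the aminopeptidase Lnpep 0.17 and 0.22, and the chaperone Canx 0.03 and -0.13.

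Both members that form the class I molecule stayed short of 2-fold with DSS. B2m (chr2:121978401-121978460, mm9) had relative signals of 25.4 (WT naive), 25.2 (KO naive), 40.5 (WT DSS) and 44.6 (KO DSS), 1.60-fold and 1.77-fold higher with DSS. The DSS and naive pools were apart in both genotypes, and the naive pools differed by a log2 ratio of -0.01 (KO over WT). The heavy chain H2-D1 (chr17:35403886-35403945, mm9) stood at 25.4, 28.4, 34.6 and 34.8, with DSS pools 1.36-fold (WT) and 1.23-fold (KO) above naive. Class I heavy chains are closely related in sequence, so the probe of a gene may also read others. Of 18 further heavy chain and class I-like genes, 16 were on the array and 0 passed 2-fold with DSS, with 10 (WT) and 13 (KO) above naive and median log2 ratios of 0.13 and 0.31.

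Among the classical and Q-region genes, H2-K1, the other classical heavy chain of this strain, had log2 DSS ratios of 0.14 in WT and -0.04 in KO on its brightest probe, and of 0.20 and 0.21 on a second probe, which turns the sign in KO. H2-Q2 (0.22 and 0.13), H2-Q7 (0.29 and 0.31), H2-Q8 (0.37 and 0.32) and H2-Q10 (0.32 and 0.38) were above naive in both genotypes, although a dimmer H2-Q10 probe was at 0.62 and -0.54. H2-Q1 (0.04 and -0.72) and H2-Q4 (-0.10 and 0.53) had unlike values in the genotypes, a difference without a test. Of the T and M regions, H2-T23, which encodes Qa-1, was at 0.30 and 0.17, H2-T3 at -0.06 and -0.55, H2-T10 at 0.14 and 0.56, H2-T24 at -0.22 and 0.12, H2-M2 at 0.12 and 0.22, and H2-M3 at 0.26 and 0.72. The class I-like genes Cd1d1, which presents lipids, and Mr1, which presents vitamin B metabolites, were at -0.15 and -0.27 in WT and at 0.50 and 0.45 in KO. The neonatal Fc receptor gene Fcgrt was at -0.01 and 0.32.

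**Figure D4:**
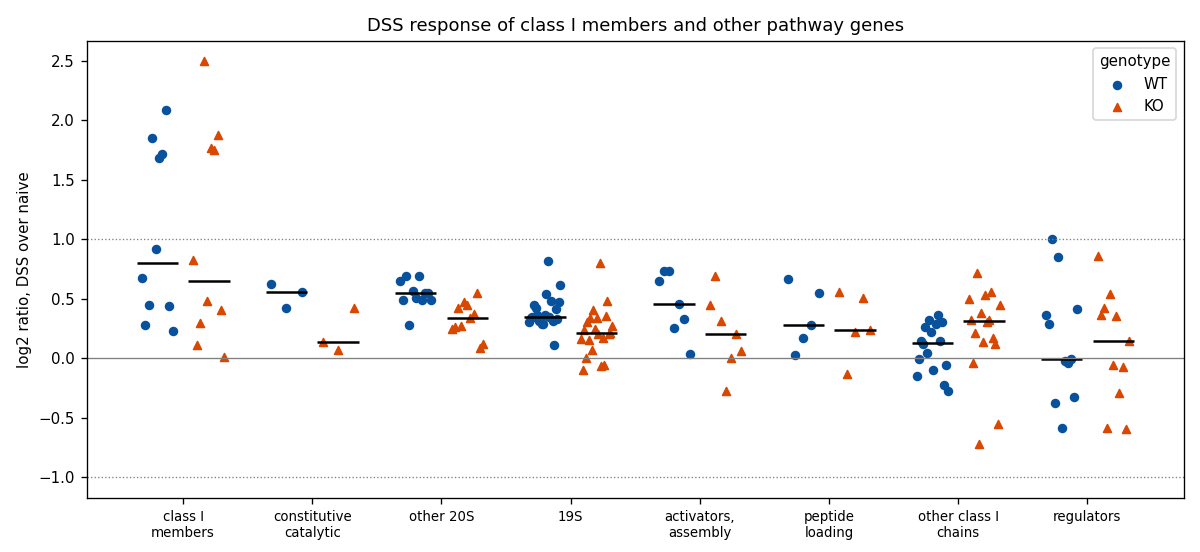
Log2 ratio of DSS over naive for the 10 class I pathway genes, the constitutive catalytic, other 20S, 19S, activator and assembly, peptide-loading and other class I chain genes, and the regulators; each point is a gene, circles are WT and triangles KO, horizontal bars are medians, and dotted lines mark 2-fold. Only members and, at the line in WT, the regulator Irf1 reach 2-fold among these lists, read by the brightest probe of each gene; the member medians are 0.80 and 0.65, those of the other 20S genes 0.55 and 0.34.

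Nlrc5, the regulator among the members, differed the most between the DSS pools. Its brighter probe had relative signals of 0.114 (WT naive), 0.159 (KO naive), 0.412 (WT DSS) and 0.894 (KO DSS). The DSS pools were 3.61-fold (WT) and 5.63-fold (KO) above naive, and the KO DSS pool lay above all others. The dimmer probe, also well above background on all 4 arrays, had 0.0236, 0.0252, 0.0267 and 0.0250, with log2 DSS ratios of 0.18 in WT and -0.01 in KO. The probes thus disagree on the DSS response and on the genotype, and which of them follows the Nlrc5 transcript was not tested. Psmb8, Psmb9 and Tap1 have no such second reading.

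Other regulators of class I transcription had log2 DSS ratios from -0.58 to 1.01 in WT (median -0.002) and from -0.59 to 0.86 in KO (median 0.15). Irf1, an interferon-induced activator of these genes, stood 2.01-fold (WT) and 1.34-fold (KO) above naive, 1 of the 11 measured regulators past 2-fold in WT and 0 in KO. Irf8, a factor of myeloid and B cells, had log2 ratios of 0.85 and 0.54 (limma adjusted p = 0.238, and 0.045 with the trend and robust options), and Irf2 of -0.37 and -0.59. Over genes well above background on all 4 arrays Irf8 was not called. The class II transactivator Ciita was at 0.37 and 0.86 and Creb1 at 0.29 and 0.36, with -0.57 and -0.32 on a dimmer Creb1 probe. Of the factors that Nlrc5 works with, Rfxap (-0.33 and -0.59), Rfxank (0.00 and -0.07), Nfya (-0.58 and -0.05), Nfyb (-0.02 and 0.35) and Nfyc (-0.04 and -0.30) were not above naive in both genotypes on the brightest probe, and Rfx5 was not well above background. Dimmer Nfyb probes were at -0.11 and 0.44 and at 0.03 and 0.43, the last above naive in both genotypes. A dimmer Nfyc probe was at -0.02 and 0.11. Upstream, Ifng was not well above background in naive colon and stood at 0.185 (WT) and 0.211 (KO) with DSS, at least 11.2-fold and 13.7-fold higher. Socs1, a feedback inhibitor of the interferon receptor, stood 5.67-fold (WT) and 4.38-fold (KO) above naive. The limma adjusted p of the DSS effect was 0.201 for Socs1, and 0.00077 with the trend and robust options, while none is given for Ifng, whose naive values were not measured. The receptor chains Ifngr1 (0.15 and -0.13) and Ifngr2 (0.09 and -0.30) and the kinases Jak1 (0.00 and 0.02) and Jak2 (0.14 and -0.14) lay near 0.

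Marker genes of other cell types also differed between the pools. They are given by how many markers were above naive, with summed relative signals, which follow the brightest probe of each list and are no measure of cell number. Of 4 pan-leukocyte markers, 1 was at least 2-fold higher with DSS in WT and 4 in KO, with all 4 above naive in both. Their sums, mostly Coro1a, were 2.33 and 4.01 in WT (naive, DSS) and 3.12 and 8.37 in KO, and Ptprc (CD45) was at 0.153 and 0.172 in WT and at 0.180 and 0.438 in KO. Of 6 measured macrophage and dendritic markers, 1 was past 2-fold in WT and 3 in KO, with 4 and 6 above naive. Their sums, mostly Csf1r, were 7.39 (WT naive), 9.85 (WT DSS), 7.05 (KO naive) and 16.7 (KO DSS), and Cd68 was at 0.789 and 1.77 in WT and at 0.691 and 2.83 in KO. Of 9 T and NK markers, 1 in WT and 2 in KO were 2-fold higher and 0 and 1 lower, with 7 (WT) and 6 (KO) above naive and median log2 ratios of 0.18 and 0.17. Their sums went the other way, 7.09 and 6.25 in WT and 7.54 and 5.45 in KO, because of the bright Nkg7 probe (3.87 and 2.36, 4.13 and 1.78). Without Nkg7 they were 3.22 (WT naive), 3.89 (WT DSS), 3.40 (KO naive) and 3.66 (KO DSS). Cd3e, a chain of the T cell receptor complex, was at 0.702 and 0.793 in WT and at 0.724 and 0.633 in KO.

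Of the 4 neutrophil markers, S100a8, S100a9 and Cxcr2 were at least 2-fold higher with DSS in each genotype and Csf3r was not. S100a8, not well above background in WT naive, was at 1.86 (WT) and 10.9 (KO) with DSS. The sums of the 4 were 32.5 (WT naive), 26.2 (WT DSS), 39.6 (KO naive) and 62.5 (KO DSS), of which Csf3r made up 32.4, 19.97, 39.3 and 29.1. Of 10 epithelial markers 0 were 2-fold higher and 1 lower in each genotype, with 7 (WT) and 1 (KO) above naive, and sums of 434 (WT naive), 497 (WT DSS), 505 (KO naive) and 391 (KO DSS). The 5 B and plasma cell markers had 0 past 2-fold, with 1 above naive in WT and 4 in KO. Their sums of 21.0 (WT naive), 18.1 (WT DSS), 29.8 (KO naive) and 28.0 (KO DSS) were nearly all Jchain (19.95, 17.1, 28.2 and 25.8), and Cd79a was at 0.248, 0.245, 0.380 and 0.502. The 3 endothelial markers (Pecam1 at 0.177, 0.126, 0.145 and 0.184) summed to 2.01, 1.61, 1.59 and 2.83 in that order. The 4 smooth muscle markers (Myh11 at 8.09, 3.37, 7.05 and 2.78) summed to 159.8, 138, 149 and 82.3.

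All 6 markers of pancreatic acinar cells were at least 2-fold higher with DSS in both genotypes, from sums of 0.165 to 22.8 in WT and of 0.156 to 5.88 in KO. In naive colon 5 of the 6 were not well above background, among them Cpa1, which stood at 2.94 (WT) and 0.488 (KO) with DSS. These markers were thus brighter in the WT DSS pool than in the KO DSS pool. As scaled here, 6 of the 10 class I genes had a larger DSS ratio in WT (H2-D1, Tap1, Tap2, Tapbp, Psmb10 and Erap1). The other 4 had it in KO (B2m, Psmb8, Psmb9 and Nlrc5). The KO minus WT differences of Tap2 (-0.03), Psmb9 (0.03) and Psmb8 (0.08) were smaller in size than the spot noise of a single ratio (0.09). A difference of 2 ratios holds more spot noise than that. After quantile normalization H2-D1 (0.24 in WT, 0.39 in KO) and Tap2 (0.34 and 0.44) had the larger ratio in KO. The part of any of the cell types with markers above in the class I values was not tested.

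Comparing KO with WT asks whether the loss of group X enzyme changes this pathway. In naive colon 0 of the 10 genes were 2-fold apart (1.13% of all genes were higher and 1.04% lower in KO), and 9 of 10 were above WT, by a median log2 ratio of 0.17 beside 0.02 over all genes. B2m was the exception at -0.01, and these signs were the same under median scaling, quantile normalization and normexp correction. Naive log2 ratios were 0.25 for Tap1, 0.24 for Psmb10, 0.22 for Psmb9 and 0.17 for Psmb8, and 0.48 for Nlrc5. The spread between pools of mice is unknown, so these differences cannot be set against it. The limma genotype effect over both treatments called 0 of 10 genes and 0% of all genes, with 853 of the 22190 genes at an unadjusted p under 0.05. Nlrc5, read by its brighter probe, was the only class I gene among these (mean log2 0.80, SE 0.24, unadjusted p = 0.041, limma adjusted p = 0.999). It was called neither with the trend and robust options (adjusted p = 0.679, 0.0315% of all genes were) nor over genes well above background on all 4 arrays (adjusted p = 0.702). On the dimmer Nlrc5 probe, which was not in the fit, the mean log2 ratio was 0.001.

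In DSS colon, 1 of the 10 genes, Nlrc5, was at least 2-fold higher in KO than in WT (2.17-fold on its brighter probe), against 5.09% of all genes, and 0 were 2-fold lower (2.2% of all genes). On the dimmer probe the log2 ratio was -0.09, and averaging both probes left 0 genes past 2-fold. The other genes lay between a log2 ratio of -0.20 (Psmb10) and 0.25 (Psmb8 and Psmb9), with a median over the 10 of 0.06 beside -0.09 over all genes. The signs in this comparison depended on the scaling: 7 of 10 were above 0 as scaled here, 4 of 10 after median scaling and 8 of 10 after quantile normalization. Psmb10 (-0.20) and Tapbp (-0.12) were below WT here and above it after quantile normalization, while Psmb8, Psmb9, B2m and Nlrc5 were above WT under all of these. In the same pools the constitutive Psmb5 (-0.28), Psmb6 (-0.22) and Psmb7 (-0.20) were below WT, and the KO over WT log2 ratio of Psmb8 exceeded that of Psmb5 by 0.53 and that of Psmb9 exceeded Psmb6 by 0.47.

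**Figure D5:**
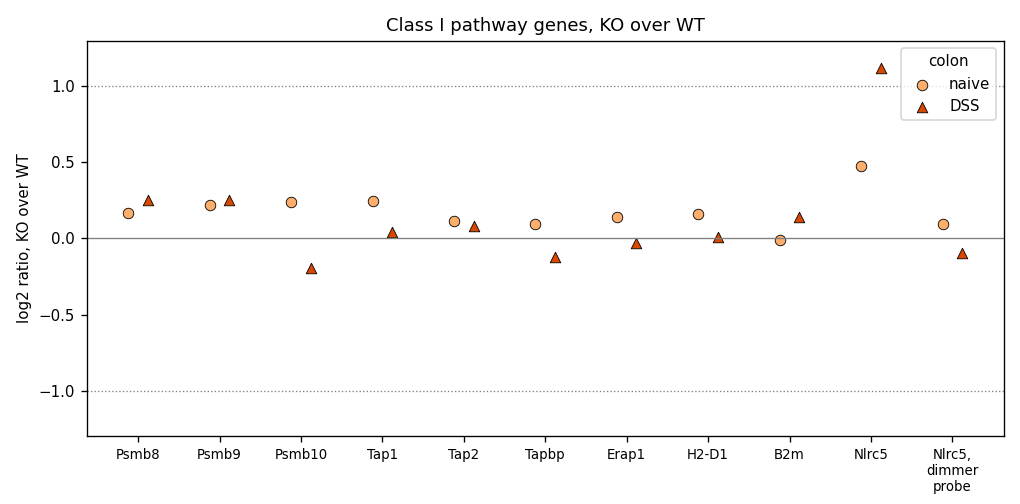
Log2 ratio of KO over WT for the 10 class I pathway genes and for the dimmer Nlrc5 probe, in naive colon (circles) and with DSS (triangles); dotted lines mark 2-fold, and each point compares 2 arrays without replicates. The brighter Nlrc5 probe with DSS (1.12) is the only point past 2-fold, and the dimmer probe lies at -0.09.

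Among the related genes, H2-Q4 was 2.02-fold higher in the KO DSS pool than in the WT DSS pool (26.6 against 13.2), 1 of the 16 measured heavy chain genes, and 0 were 2-fold lower. Ciita, the class II counterpart of Nlrc5, was 2.02-fold higher (0.0827 against 0.0409), 1 of 11 regulators, while Irf1 was at 17.01 in KO and 22.3 in WT, a log2 ratio of -0.39. Of all genes, 5.09% were 2-fold higher in this comparison and 2.2% lower. H2-Q4 and Ciita lay at the 2-fold line, with log2 ratios of 1.01 each. Median scaling, which lowers all ratios of this comparison alike (H2-D1 from 0.01 to -0.08), takes both below the line. Leukocyte markers were higher in the KO DSS pool as well, 4 of 4 past 2-fold with a median log2 ratio of 1.19. The B and plasma markers (4 of 5 past 2-fold, median 1.20), neutrophil markers (3 of 4) and macrophage and dendritic markers (1 of 6, median 0.80) were higher as well, and epithelial markers were below WT in 10 of 10, with a median of -0.28. Some leukocyte and B cell markers were near the 2-fold line (Coro1a and Cd79a at 1.03) and fall below it after median scaling. These counts past 2-fold thus depend on the scaling. The part of these cell types in the difference of Nlrc5, H2-Q4 and Ciita was not tested. The 4 comparisons share arrays, so that a DSS ratio and a genotype ratio that use the same pool are not independent of each other. The DSS response of the 10 genes, KO minus WT, had a median log2 difference of -0.09, with no test, and its sign turned to 0.12 after quantile normalization. Nlrc5 had the highest difference of the 10, on its brighter probe (0.64), and Psmb10 the lowest value (-0.43).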

How the data were processed

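RNA from 3 pooled colons was hybridised to each of 4 Agilent arrays (Cy3), on 1 slide with 1 scan per the file headers. The authors deposited scanner files holding the processed intensity of each spot, after background subtraction and detrending per the file headers, made with Agilent Feature Extraction 11.5.1.1 per the submitters' processing notes. In the deposited series table, the signal of a spot equals the processed intensity over the 75th percentile of the array, as the values show. Control and outlier spots (129 to 136 per array) were left out, the log2 intensity was set relative to the 75th percentile, and spots of a probe were averaged. Probes not well above background on any array were dropped, which left 28720 of 39429, and the brightest stood for its gene. Symbols were those of the files, and of 135 listed genes other than the members 131 matched by symbol, 2 by an older symbol and 2 were unmatched. Where the lower array did not measure a gene, its fold is written as at least, against the dimmest probe that array still measured well above background.

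With 1 array per group, ratios of 2 arrays were counted at 2-fold with no test. The additive fit (treatment and genotype) used lmFit and eBayes of the limma package (version 3.58.1; R 4.3.3), Benjamini-Hochberg adjustment over all genes and a threshold of 0.05, and was tested on simulated data. The R package data.table (1.17.8) and Python 3.11.15, pandas 2.3.3 and numpy 2.4.6 were also used. The number of arrays limits the precision. No group holds a second array, so the error of the fit comes from how far the genotypes (or treatments) disagree, not from a spread between mice. The p-values weigh the mean effect against that error. It has 1 residual degree of freedom, and eBayes adds a prior drawn from all fitted genes. That prior had 2.17 degrees of freedom, 4.87 over genes well above background on all 4 arrays, and a median of 6.52 with trend and robust options. Probe coordinates are of mm9, and promoters and gene positions come from RefSeq GRCm38.p6 tables; builds were not mixed. The genes and lists were chosen with earlier results of these data known. Named were all 10 members with every probe, every gene of the short pathway lists (1 regulator, counted in its list, is not reported here by name), the highest and lowest 20S and 19S genes by mean DSS ratio, the first marker of each cell type list, and Pla2g10. Alternatives were median scaling, quantile normalization, normexp (offset 50) with quantile normalization, the series table, the mean of a gene's probes, other filters on dim probes, a 1.5-fold threshold, measured values in place of bounds, and limma's trend and robust options.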

Additional observations from a re-analysis of the deposited data

Results flagged for a closer look

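For 5 probes the genotype difference had opposite signs in naive and DSS colon, or the DSS response had opposite signs in WT and KO. Each rests on 1 array per group, and the difference was not tested. The change in the KO over WT log2 ratio from naive to DSS was 0.15 for B2m (from -0.01 to 0.14). It was -0.22 for Tapbp (from 0.10 to -0.12), -0.43 for Psmb10 (from 0.24 to -0.20) and -0.17 for Erap1 (from 0.14 to -0.03). For the dimmer Nlrc5 probe it was -0.19 (from 0.09 to -0.09), and its DSS response differed by the same -0.19 between KO (-0.01) and WT (0.18). Under quantile normalization the KO over WT log2 ratio with DSS was 0.011 for Tapbp and 0.0052 for Psmb10, so that their signs no longer differed from those in naive colon. Of these ratios, -0.01 (B2m), -0.03 (Erap1) and -0.01 (Nlrc5) are smaller in size than the spot noise of 0.09.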

How the results depend on the processing

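The counts of 4 genes past 2-fold with DSS (WT and KO) and of 0 for KO over WT in naive colon stayed within 1.5 times under all alternatives run. The median log2 DSS ratio in WT (0.80) was 0.94 after median scaling, which moved the median of all genes to 0.12, 0.58 after quantile normalization and 0.58 after normexp with quantile normalization. The KO median (0.65) lay between 0.65 and 0.73. The median of KO over WT with DSS (0.06) turned to -0.028 after median scaling and was 0.20 after quantile normalization and 0.20 after normexp, and the count past 2-fold fell from 1 to 0 with the mean of all probes of Nlrc5. The difference of DSS responses (-0.09) reversed to 0.12 after quantile normalization and 0.11 after normexp. The limma DSS effect called 4 of 10 genes over genes well above background on all 4 arrays and 4 with trend and robust options, against 0 otherwise. The cause of these changes was not tested. Of 192 probe ratios recomputed under other scalings or from the deposited series table, 120 moved by less than the spot noise and 72 by more. Of them, 0 past 2-fold changed sign. The series table holds the same scaling as used here, so its ratios count among the 120 by construction. No paired analysis was possible because each group holds 1 array and the labels give no replicate numbers. Leaving out an array was not possible as a test, since 3 arrays leave 0 residual degrees of freedom.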
